A study of Homo sapiens with 6 samples.

Results

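Mirtrons are miRNAs cut from short introns. The spliceosome releases the intron and the debranched lariat folds into the precursor hairpin, so that the Drosha cleavage of canonical miRNAs is bypassed before Dicer acts. Each hairpin can give a miRNA from its 5′ side (5p arm) and from its 3′ side (3p arm), and an arm bound by an Argonaute protein pairs with target mRNAs through its seed. 10 mature miRNAs of the first mammalian mirtrons to be described were taken by name from the 2588 miRNAs of the count table: hsa-miR-877-5p, hsa-miR-877-3p, hsa-miR-1224-5p, hsa-miR-1225-5p, hsa-miR-1226-5p, hsa-miR-1226-3p, hsa-miR-1228-5p, hsa-miR-1229-3p, hsa-miR-1236-3p and hsa-miR-1237-3p. They come from 8 hairpins, and 5 are 5p arms and 5 are 3p arms. A list of 13 further arms of these and related mirtron hairpins (miR-1224, miR-1225, miR-1227 to miR-1229, miR-1233, miR-1234 and miR-1236 to miR-1238) was read beside them. As background, miR-1225 and miR-1228 have also been described as made without splicing.

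All libraries came from Caco-2 cells with no treatment named in the labels, an established line derived from a colorectal adenocarcinoma. An antibody against N7-methylguanosine (m7G), a methylated guanosine that METTL1 can place inside RNAs, was used to immunoprecipitate heat-denatured RNA (m7G-RIP, n = 3), and Input libraries (n = 3) hold RNA that did not go through the antibody. The study's protocol removes 5′ caps, which also carry m7G, before this step. The comparison asks which miRNAs the antibody recovers above their share of the Input. Nothing in the labels says that the libraries of a group came from separate cultures, so p-values measure the spread between these libraries, which may be technical.

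The counts on miRNAs ranged from 16466178 to 19628046 per Input library and from 1654102 to 3105129 per m7G-RIP library, and levels are given as CPM (counts per 1000000, scaled by TMM factors, which correct for library composition). At these depths 3 counts were worth 0.235 to 0.262 CPM (Input) or 0.676 to 1.11 CPM (m7G-RIP). The reads carry no molecular identifiers, so such floors cover counting error only. The intestinal epithelial markers miR-192-5p, miR-194-5p, miR-200b-3p, miR-200c-3p and miR-141-3p were present in the Input at 260 to 54882 CPM. Of the markers of other cell types, miR-122-5p (liver) and miR-223-3p (myeloid) had no counts, miR-451a and miR-142-3p (blood) had 4.83 and 5.99 CPM, and the muscle miRNAs miR-1-3p and miR-133a-3p had 644 and 60.7 CPM.

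Mature sequences were available from RefSeq (GRCh38.p14) for all 10 miRNAs and are shown because the arms of each hairpin differ in base composition. They are written 5′ to 3′, with the seed (bases 2 to 8) in capitals. The 5p arms are:

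miR-877-5p: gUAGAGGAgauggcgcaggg
miR-1224-5p: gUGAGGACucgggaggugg
miR-1225-5p: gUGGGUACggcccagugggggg
miR-1226-5p: gUGAGGGCaugcaggccuggaugggg
miR-1228-5p: gUGGGCGGgggcaggugugug

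The 3p arms, on the other side of the hairpin, are:

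miR-877-3p: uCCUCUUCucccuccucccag
miR-1226-3p: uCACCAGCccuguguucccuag
miR-1229-3p: cUCUCACCacugcccucccacag
miR-1236-3p: cCUCUUCCccuugucucuccag
miR-1237-3p: uCCUUCUGcuccgucccccag

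All 5 of the 5p arms open with GU, the bases that open nearly every intron, against 3.42% of the 2370 mature miRNAs in the RefSeq table. All 5 of the 3p arms close with AG, the bases that close nearly every intron, against 12.1% of those miRNAs. Both counts follow from the choice of mirtrons, since these arms reach the ends of their introns. Of the further arms, miR-1233-5p, miR-1236-5p and miR-1237-5p do not open with GU. Likewise miR-1228-3p and miR-1238-3p do not close with AG. The seeds of the 10 miRNAs all differ, and none is shared with another mature miRNA of the table. Each of the 10 sequences has exactly 1 site in the GRCh38 genome. No other mature miRNA of the RefSeq table held one of them over its whole length, or was held in one, with at most 1 mismatch. Trimmed or shifted reads that overlap another miRNA only in part were not compared. Listed miRNAs without a sequence in that table were not compared.

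The arms differ most in guanosine. In the 5p arms its share runs from 53.8% in miR-1226-5p to 66.7% in miR-1228-5p. In the 3p arms, which cover the pyrimidine-rich end of the intron, it runs from 4.76% in miR-877-3p, with a single G, to 18.2% in miR-1226-3p. The precursors of miR-877 and miR-1226, the hairpins with both arms among the 10 miRNAs, are shown whole with the mature arms in capitals, and that of miR-1237 because its arms lie differently:

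MIR877: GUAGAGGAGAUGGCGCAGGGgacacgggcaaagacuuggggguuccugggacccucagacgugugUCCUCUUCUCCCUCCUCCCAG
MIR1226: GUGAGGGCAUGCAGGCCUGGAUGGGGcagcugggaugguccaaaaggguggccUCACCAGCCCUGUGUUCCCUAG
MIR1237: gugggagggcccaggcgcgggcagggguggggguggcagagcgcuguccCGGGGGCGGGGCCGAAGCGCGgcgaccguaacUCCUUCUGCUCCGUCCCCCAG

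The MIR877 hairpin lies on the plus strand of GRCh38 at chr6:30584332-30584417 and is, base for base, an 86-base intron of ABCF1, which codes for a protein of translation initiation. MIR1226 at chr3:47849555-47849629 is a 75-base intron of the RNA helicase gene DHX30. MIR1237 at chr11:64368602-64368703 is a 102-base intron of RPS6KA4, a kinase gene. MIR1228 at chr12:57194504-57194576 fills an intron of the lipoprotein receptor gene LRP1, and MIR1224 at chr3:184241405-184241489 fills an intron of VWA5B2. On the minus strand, MIR1229 at chr5:179798278-179798346 fills an intron of MGAT4B (an N-glycan branching enzyme), MIR1236 at chr6:31956839-31956940 an intron of NELFE (a subunit of the negative elongation factor; 1 of 13 transcripts has an exon there), and MIR1225 at chr16:2090195-2090284 an intron of PKD1 (polycystin-1). In GENCODE 44 all 8 hairpins, and all 11 hairpins of both lists that had a sequence, began at the first base and ended at the last base of an annotated intron. The introns of the 8 hairpins were 69 to 102 bases long. The 5p arm began at intron base 1 in MIR877, MIR1224, MIR1225, MIR1226, MIR1228 and MIR1229 and at base 2 in MIR1236. In MIR1237 it began at base 50, far from the 5′ splice site, while its 3p arm reached the last base of the intron.

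**Figure D1:**
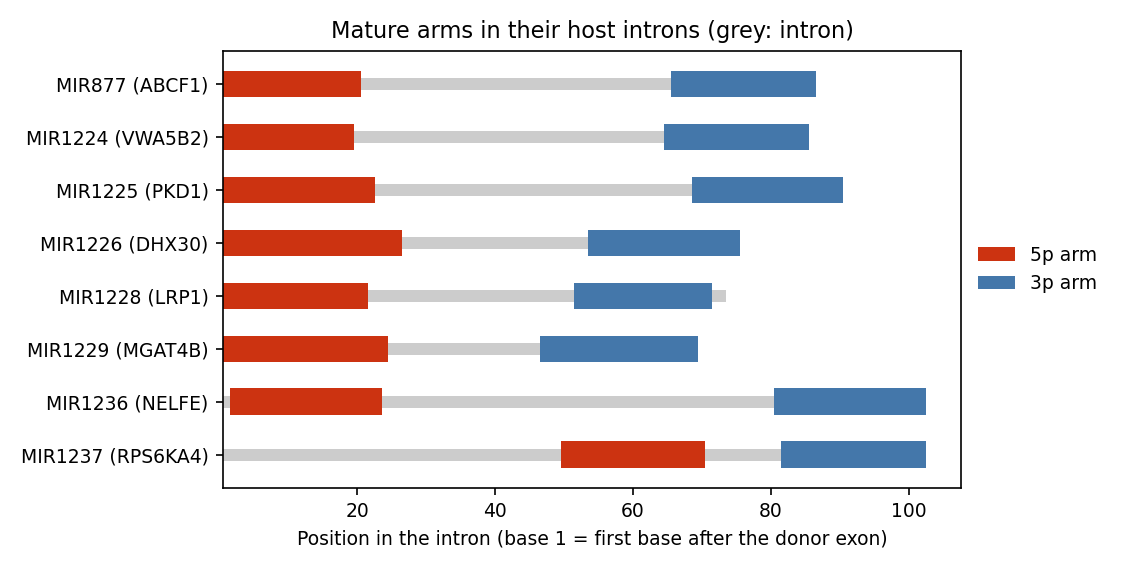
Position of the mature arms in their host introns for the 8 hairpins; the horizontal axis is the base of the intron counted from its 5′ splice site, grey bars are introns, red bars 5p arms and blue bars 3p arms. The 5p arms start at base 1 or 2 except in MIR1237, where the arm starts at base 50, and the 3p arms end at the last base except in MIR1228, where 2 bases follow.

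A search of the RNA strand of each hairpin for 4 runs of GG or longer separated by 1 to 4 bases of any kind (N), the pattern of a possible G-quadruplex, found it in 6 of the 8 hairpins and in 17.9% of the 1562 human hairpins of the table. In MIR877 it is ggagauggcgcaggggacacggg, 23 bases that overlap the 5p arm, and in MIR1229 it is gguaggguuuggggg, 15 bases inside the 5p arm. MIR1225 and MIR1226 did not hold the pattern. A base between runs can itself be G, so a long run can be split into separate runs, as in MIR1228 and MIR1229. A match describes the letters alone, and folding was not measured.

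9 of the 10 miRNAs passed the filter on low counts and were tested. The filter asked for a minimum level, before TMM scaling, in any 3 libraries. miR-1224-5p and miR-1236-3p were under this level in Input replicate 3 and passed through their m7G-RIP libraries. miR-1225-5p had 1 count in Input replicate 2 and 0 in the other libraries, below the limit that a count of 0 allows (3 counts), and is unmeasured here. In the Input the 10 miRNAs together had a share of 235 ± 38.7 ppm of the miRNA counts (SD, n = 3), and in m7G-RIP of 6090 ± 3113 ppm (SD, n = 3). The Input libraries ranged from 193 to 268 and the m7G-RIP libraries from 3275 to 9434, so the groups did not overlap. These shares are of unscaled counts and are not on the TMM-scaled CPM scale used below. How many other sets of miRNAs separate in this way was not counted. miR-877-5p made up 46.3% ± 3.72 (SD, n = 3) of these counts in the Input and 91.1% ± 2.46 (SD, n = 3) in m7G-RIP.

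By level in the Input, miR-877-5p stood at 160 ± 30.8 CPM (SD, n = 3), above miR-1226-3p at 106 ± 9.24 CPM and miR-877-3p at 33.1 ± 1.77 CPM. miR-1229-3p at 15.8 ± 0.996 CPM and miR-1226-5p at 14.0 ± 0.846 CPM overlapped between libraries. miR-1237-3p followed at 7.08 ± 1.04 CPM and miR-1228-5p at 3.78 ± 0.0464 CPM. The lowest were miR-1224-5p at 1.84 ± 0.730 CPM and miR-1236-3p at 1.43 ± 0.430 CPM, which overlapped each other. A small RNA read covers a whole miRNA, so levels need no length scaling, and the order was the same when divided by length. Unequal ligation of different sequences was not corrected. In m7G-RIP miR-877-5p was 42.2-fold above the next miRNA of the set, miR-1226-3p, while the 6 miRNAs from miR-1226-3p down to miR-1228-5p overlapped with their neighbours in the order.

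**Figure D2:**
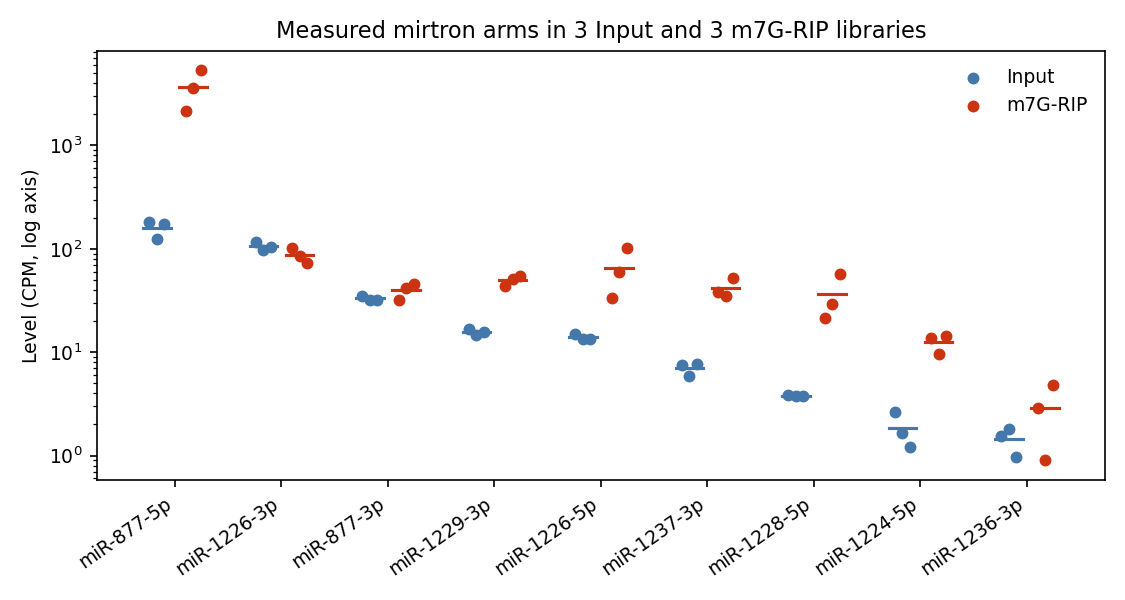
Level of the 9 measured miRNAs in CPM on a log axis, ordered by their Input mean; points are libraries (blue Input, red m7G-RIP, n = 3 each) and bars are group means. miR-877-5p rises from 124 to 182 CPM in the Input to between 2167 and 5344 CPM in m7G-RIP, while for miR-1226-3p, miR-877-3p and miR-1236-3p the groups overlap.

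Of the 9 measured miRNAs 6 were enriched in m7G-RIP and 0 were depleted when calls were made below an adjusted p-value of 0.05 (quasi-likelihood test of edgeR, Benjamini-Hochberg method over 800 miRNAs). At an unadjusted p-value under 0.05 no further miRNA of the set was called, and DESeq2's Wald test called 6 enriched and 1 depleted. Among all 800 tested miRNAs 40.1% were enriched and 38.1% depleted. The median log2 enrichment of the 9 was 2.20, against 0.16 for all tested miRNAs. The 0 of this scale depends on the scaling: with total counts alone the median enrichment of all tested miRNAs moved up by 1.09, with 442 enriched and 198 depleted in place of 321 and 305, and all 9 mirtron miRNAs were then enriched. Upper-quartile factors gave 418 enriched and 227 depleted, again with all 9 enriched. With DESeq2's size factors it moved down, by -0.34, and the same count of 6 was enriched.

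All 4 measured 5p arms were enriched, against 46.5% of the 329 tested 5p arms of all miRNAs. Of these 4, miR-1224-5p passed the filter only with the help of its m7G-RIP libraries, so its place in this count was favoured by the filter. miR-877-5p had 182, 124 and 172 CPM in Input replicates 1, 2 and 3 and 2167, 3575 and 5344 CPM in m7G-RIP replicates 1, 2 and 3. Every m7G-RIP library lay above every Input library by more than 10-fold. Its log2 enrichment was 4.53 (standard error, SE, 0.30; edgeR adjusted p = 1.36e-08), or 23.1-fold, rank 20 of the 800 tested miRNAs. Leaving out single libraries gave values from 4.09 to 4.77.

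miR-1228-5p, the most guanosine-rich of the 10, had 3.84, 3.76 and 3.75 CPM in the Input and 21.6, 29.5 and 57.5 CPM in m7G-RIP. The Input libraries were close together and the m7G-RIP libraries spread widely above them. The log2 enrichment was 3.24 (SE 0.36, edgeR adjusted p = 3.05e-06).

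miR-1224-5p was rare, with 31, 21 and 14 counts in the Input and 56, 43 and 39 in m7G-RIP. On the CPM scale this was 2.64, 1.65 and 1.22 against 13.6, 9.68 and 14.4, without overlap, and the log2 enrichment was 2.75 (SE 0.40, edgeR adjusted p = 3.44e-05). miR-1226-5p had 176, 173 and 155 counts in the Input and 137, 263 and 279 in m7G-RIP. Scaled to CPM, its Input mean was 14.0 and the m7G-RIP libraries had 33.3, 59.2 and 103, also without overlap. Its log2 enrichment of 2.20 (SE 0.34, edgeR adjusted p = 5.37e-05) was the lowest of the 4, and it was 1.64 without m7G-RIP replicate 3.

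The 3p arms were uneven, with 2 of 5 enriched, against 29.9% of the 314 tested 3p arms of all miRNAs. miR-1237-3p had 7.59, 5.88 and 7.77 CPM in the Input and 38.6, 35.1 and 52.3 CPM in m7G-RIP. The groups were well apart, with a log2 enrichment of 2.56 (SE 0.26, edgeR adjusted p = 1.2e-06), above that of miR-1226-5p. miR-1229-3p had 16.8, 14.8 and 15.7 CPM in the Input and 43.2, 51.1 and 54.2 CPM in m7G-RIP, again without overlap, and a log2 enrichment of 1.65 (SE 0.21, edgeR adjusted p = 1.37e-05).

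The other 3 did not pass the test, and their groups overlapped. miR-877-3p, the partner of the most enriched arm, had 35.1, 32.2 and 31.9 CPM in the Input and 31.8, 41.7 and 46.1 CPM in m7G-RIP. Its log2 enrichment of 0.26 (SE 0.21, edgeR adjusted p = 0.267) turned to -0.08 with DESeq2's size factors and was 1.38 with total counts, where it passed the test. miR-1226-3p had 116, 97.8 and 105 CPM in the Input and 103, 86.0 and 73.7 CPM in m7G-RIP. Its log2 enrichment of -0.28 (SE 0.18, edgeR adjusted p = 0.172) was -0.62 with DESeq2's size factors and 0.81 with total counts, both past the threshold, and without m7G-RIP replicate 1 it was -0.44 and past the threshold as well, so no direction can be given. miR-1236-3p had only 18, 23 and 11 counts in the Input and 12, 4 and 13 in m7G-RIP, and a log2 enrichment of 0.92 (SE 0.61, edgeR adjusted p = 0.175) that was not distinguishable from the spread at this depth and was 0.30 without m7G-RIP replicate 3.

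8 of the 9 measured miRNAs had their highest m7G-RIP level in replicate 3, the library with the fewest counts. The share of all 800 tested miRNAs that peak there was not counted, so this is not read as a trait of the set. What part the depth of this library has in the result was not tested. Without it the same count of 6 was enriched, with log2 values from 1.49 for miR-1229-3p to 4.09 for miR-877-5p.

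**Figure D3:**
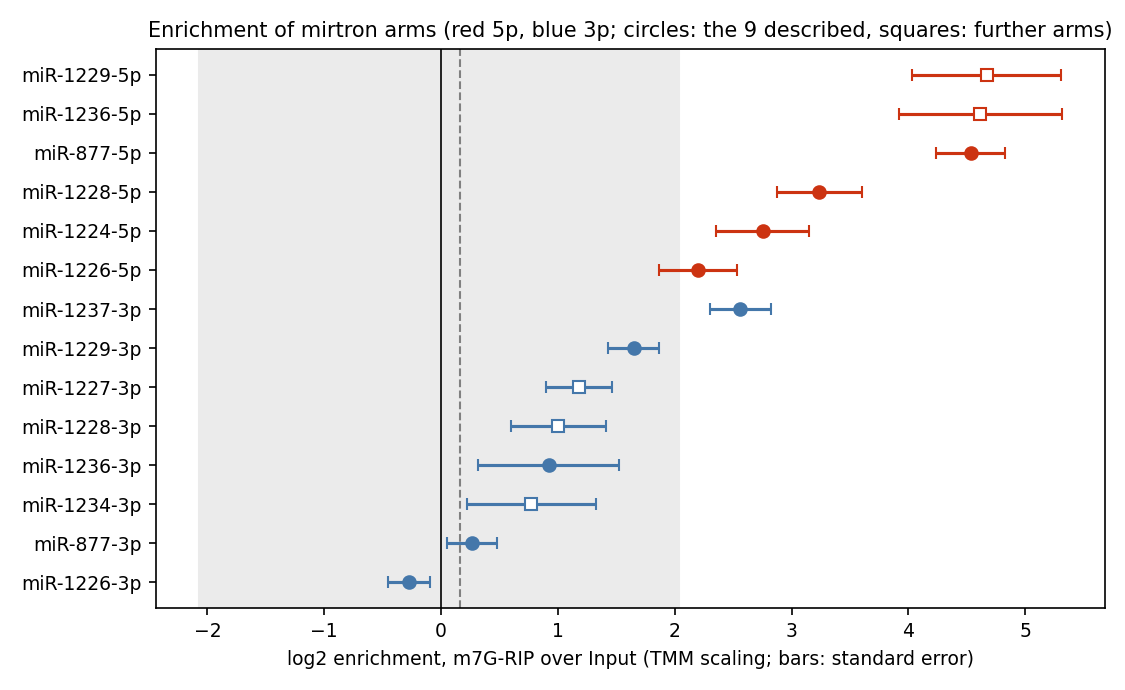
Log2 enrichment of m7G-RIP over Input for the measured arms of mirtron hairpins (filled circles, the 9 measured miRNAs; open squares, 5 further arms), with bars of 1 standard error; red marks 5p arms and blue marks 3p arms. The grey band holds the middle of all 800 tested miRNAs (quartiles -2.07 and 2.03) and the dashed line is their median of 0.16; the 6 measured 5p arms lie from 2.20 to 4.67 and the 8 measured 3p arms from -0.28 to 2.56. The signs of miR-877-3p and miR-1226-3p change with the scaling. miR-1229-5p and miR-1236-5p passed the filter only through their m7G-RIP libraries.

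Of the 13 further arms 5 were tested, and 4 of these were enriched and 0 depleted (edgeR, same threshold and background as above). DESeq2's Wald test called 3 enriched and 0 depleted, and at an unadjusted p-value under 0.05 edgeR called no further arm. Their median log2 enrichment was 1.18, against 0.16 over all tested miRNAs. miR-1229-5p had 0.938, 0.470 and 0.960 CPM in the Input and 7.53, 12.4 and 42.7 CPM in m7G-RIP, with no overlap and a log2 enrichment of 4.67 (SE 0.64, edgeR adjusted p = 2.12e-05). Its value rested in part on m7G-RIP replicate 3, without which it was 3.56. miR-1236-5p had 2, 2 and 1 counts in the Input and 10, 12 and 18 in m7G-RIP. The ratio of its summed counts, scaled to the library sizes, was 25.5 with an exact 95% counting interval from 10.1 to 82.8, and the edgeR adjusted p was 4.94e-05. Its log2 enrichment was 4.62, and 3.99 without m7G-RIP replicate 3. miR-1229-5p and miR-1236-5p, like miR-1234-3p below, lay under the level of the filter in every Input library. They were tested only through their m7G-RIP libraries, so the enriched calls of the 5p arms were favoured by the filter and are no separate support.

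Among the 3p arms of that list miR-1227-3p, from the intron of PLEKHJ1, had 9.29, 6.27 and 7.85 CPM in the Input and 15.8, 18.7 and 18.8 CPM in m7G-RIP. The groups did not overlap and the log2 enrichment was 1.18 (SE 0.28, edgeR adjusted p = 0.00186). miR-1228-3p had a log2 enrichment of 1.00 (SE 0.41, edgeR adjusted p = 0.0376) with overlapping groups. Its call was lost with the replicate number as a block (adjusted p = 0.0793 from edgeR), in DESeq2's Wald test, and when any library except m7G-RIP replicate 1 was left out, down to 0.34 without m7G-RIP replicate 3. miR-1234-3p had a log2 enrichment of 0.77 (SE 0.55, edgeR adjusted p = 0.209) on 5 to 16 counts per library. The remaining 8 arms were unmeasured. miR-1237-5p had 2, 2 and 1 counts in the Input and 9, 10 and 0 in m7G-RIP, and miR-1224-3p, miR-1225-3p, miR-1227-5p and miR-1238-3p had at most 6 counts in any library. miR-1233-5p, miR-1233-3p and miR-1238-5p had none. The miR-1233 sequences have 14 and 20 exact sites in GRCh38, and the STAR settings given in the study's methods drop reads with more than 10 sites (the labels name another aligner), so their zeros do not speak to expression.

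The ratio of both arms within a library does not depend on how libraries are scaled. It was taken as log2 of the 5p over the 3p count, with 0.5 added to each, for the 6 hairpins whose arms each had at least 10 counts over all libraries. miR-877 gave mostly its 5p arm in the Input, with 82.5% of the counts of both arms (79.5% to 84.4% between libraries), and almost only that arm in m7G-RIP, with 98.8% (98.6% to 99.1%). Its log2 ratio was 2.25 ± 0.26 (SD, n = 3) in the Input and 6.45 ± 0.38 (SD, n = 3) in m7G-RIP, a difference of 4.20 (standard error 0.27).

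The other hairpins gave mostly their 3p arm in the Input. In miR-1226 the 5p arm took 11.7% of the counts in the Input (11.4% to 12.2%) and 41.1% in m7G-RIP (24.4% to 58.2%), a difference in the log2 ratio of 2.35 (standard error 0.61). In miR-1228 it took 37.0% and 73.7%, a difference of 2.25 (standard error 0.17). In this hairpin the 3p arm was the more abundant in all 3 Input libraries and the 5p arm in all 3 m7G-RIP libraries. miR-1229 went from 4.71% to 26.1% of counts on the 5p arm (difference of 2.69 in the log2 ratio, standard error 0.71), a difference that was 2.04 without m7G-RIP replicate 3. miR-1236 went from 8.78% to 59.5% (difference of 3.58, standard error 0.51) on at most 23 counts per arm and library, and the difference was 2.51 with a pseudocount of 3.

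In these 5 hairpins every m7G-RIP library had a higher ratio than every Input library. The share of all hairpins that separate in this way was not counted, so this is not read as a trait of mirtrons. An exact permutation test, two-sided, gave p = 0.1 for each, the smallest that 3 against 3 libraries allow, and an adjusted p of 0.12 over the 6 hairpins. miR-1237 was the exception, with a difference of -0.05 (standard error 1.42, exact permutation p = 1, two-sided). Its 5p arm had 0 counts in m7G-RIP replicate 3, and without that library the difference was 1.34, so the arms of miR-1237 could not be compared at this depth. Across all 194 hairpins with both arms tested, the 5p log2 enrichment minus that of the 3p arm had a median of 0.91 and was positive in 64.4%. In the 5 mirtron hairpins among them it was positive in 5 of 5, with a median of 3.02 and a range from 2.23 for miR-1228 (rank 70 of 194) to 4.27 for miR-877 (rank 16). The 5p arms of miR-1229 and miR-1236 were tested only through their m7G-RIP libraries, which favours a positive difference there.

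**Figure D4:**
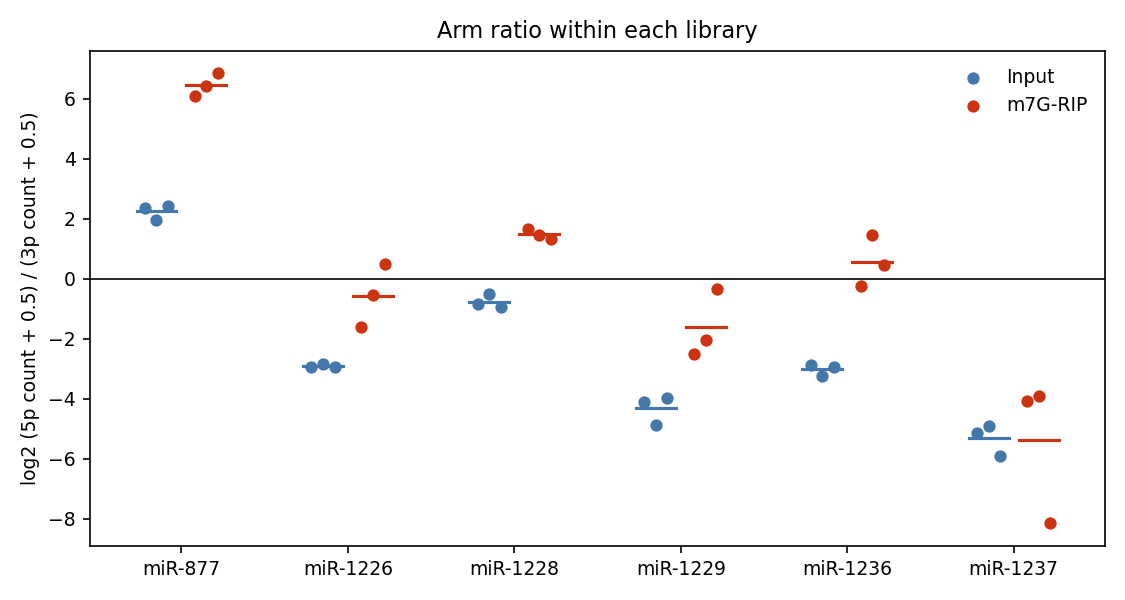
Log2 ratio of the 5p to the 3p count (0.5 added to each) in every library for 6 mirtron hairpins; points are libraries (blue Input, red m7G-RIP, n = 3 each), bars are group means, and values above 0 mean that the 5p arm is the more abundant. The m7G-RIP points lie above the Input points in 5 hairpins, by 2.25 for miR-1228 to 4.20 for miR-877 on average, and overlap in miR-1237.

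The share of guanosine was set against log2 enrichment as a description, over miRNAs that share the same 6 libraries. Over the 714 tested miRNAs with a mature sequence Pearson's r was 0.498 and Spearman's rho 0.497, and over the 9 mirtron miRNAs r was 0.735 and rho 0.733. Over 164 hairpins of other miRNAs the difference in guanosine share between the arms went with the difference in log2 enrichment with r = 0.547. The relation was not even along its range. Of the 98 tested miRNAs with at least 50% guanosine 91.8% were enriched, at a median log2 enrichment of 3.11. The median was -1.41 for the 187 with 20% to below 30%, and it was 0.60 for the 61 with less than 10%. The filter let in some rare miRNAs through their m7G-RIP libraries alone, as with miR-1229-5p and miR-1236-5p, which favours enriched values. How many of the 714 passed in this way was not counted.

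Set in these bands, the 4 measured 5p arms fell on both sides of the median of their band, with miR-877-5p 1.42 above it (rank 9 of 98) and miR-1226-5p 0.91 below it (rank 78 of 98). Of the further 5p arms, miR-1229-5p stood 1.56 above it (rank 5 of 98) and miR-1236-5p was also above it (rank 7 of 98). Both had passed the filter only through their m7G-RIP libraries. Most 3p arms lay above the median of theirs. miR-1237-3p, with 3 G in 21 bases (14.3%), stood 3.85 above the median of the 138 miRNAs with 10% to below 20% guanosine, rank 4 among them, and miR-1227-3p and miR-1228-3p stood 2.47 and 2.29 above it. miR-1226-3p lay 1.01 above the same median. In the band under 10% miR-1229-3p was 1.05 above the median, miR-1236-3p 0.33 above it and miR-877-3p 0.33 below it.

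**Figure D5:**
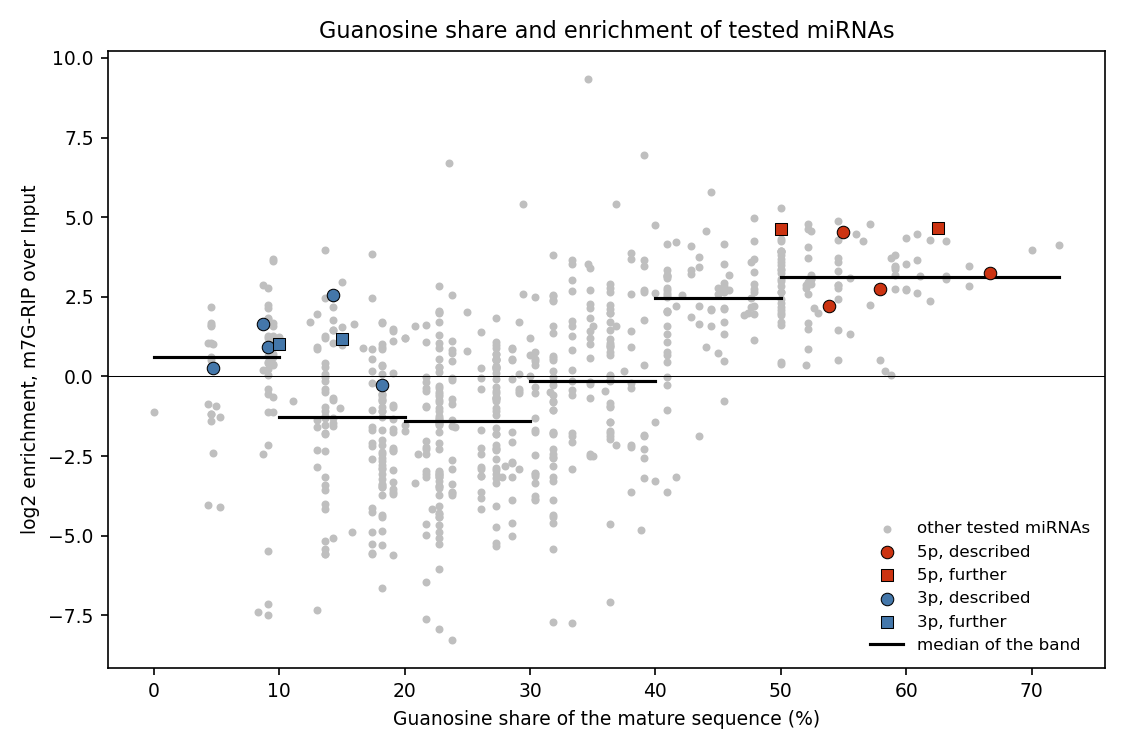
Log2 enrichment of m7G-RIP over Input against the guanosine share of the mature sequence for 714 tested miRNAs (grey), with 5p arms of mirtrons in red and 3p arms in blue (circles, the miRNAs described; squares, further arms); black lines are medians of bands of guanosine share. The 5p arms lie at 50% guanosine or more with values of 2.20 to 4.67, and the 3p arms lie under 20% guanosine; miR-1237-3p at 14.3% and 2.56 is well above the median of its band, -1.29.

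The miRNAs from miR-6720 to miR-6895, many of which have been described as mirtron-like, are the closest set in the table. Of 346 listed, 114 were tested, and 80 of these (70.2%) were enriched and 5 depleted, at a median log2 enrichment of 2.23. Their 5p arms had a median of 3.37 with 55 of 65 enriched (84.6%, against 46.5% of all tested 5p arms), and their 3p arms 1.41 with 25 of 49 enriched (51.0%, against 29.9% of all tested 3p arms). For the classical mirtron miRNAs the medians were 3.00 for the 4 measured 5p arms and 0.92 for the 5 measured 3p arms, and for all tested miRNAs 0.40 for 329 5p arms and -0.31 for 314 3p arms. No test of these sets against each other was made. Rare arms of each set could pass the filter through their m7G-RIP libraries alone, which favours enriched calls and higher medians. How many passed in this way was not counted, either from miR-6720 to miR-6895 or among all tested arms.

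The tested miRNAs whose pattern over the 6 libraries was most like that of miR-877-5p, by the Euclidean distance of log2 CPM after centring each on its mean, were miR-4728-5p (distance 0.216), miR-6734-5p (0.250) and miR-149-3p (0.646), against a median distance of 5.58 over the other 799. Their guanosine shares were 52.2%, 52.2% and 61.9%, near the 55.0% of miR-877-5p. The distance takes in the size of the enrichment (log2 values of 4.63, 4.79 and 4.29). The likeness in guanosine is therefore not separate from the relation given above. These miRNAs were far rarer than miR-877-5p, at 3.22, 0.729 and 1.09 CPM in the Input. On average, miR-6734-5p and miR-149-3p lay under the level of the filter in the Input. They were tested with the help of their m7G-RIP libraries, which favours likeness to an enriched miRNA.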

How the data were processed

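Small RNA libraries of Input and m7G-RIP samples from Caco-2 cells were sequenced (n = 3 each). In the study's methods the authors trimmed adaptors with Trimmomatic, mapped reads to GRCh38 with STAR and assigned them with featureCounts to the mature miRNAs of miRBase 22; the submitters' processing notes name Bowtie2 in place of STAR. What the authors deposited are unnormalized counts of reads for each miRNA in each library, with no pooling. How reads with several sites were counted is not given in the sources used here.

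Libraries were grouped by their labels. Counts were tested with edgeR 4.0.16 in R 4.3.3 (filterByExpr with a minimum count of 10 and a minimum total of 15, TMM factors, quasi-likelihood F test, Benjamini-Hochberg adjustment over all 800 miRNAs tested, threshold 0.05). The study's own test, DESeq2 (version 1.42.0, Wald test), was an alternative. The standard error of a log2 enrichment is its absolute value over the square root of F. Arm ratios were compared with exact permutation tests in scipy 1.17.1. Only the edgeR fit was run on simulated counts, in which fewer miRNAs changed than were called here. The filter, the arm ratios and the permutation tests were not simulated. Low totals in m7G-RIP limit the precision for rare arms.

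Sequences are from RefSeq (GRCh38.p14) and introns from GENCODE 44. Hairpin sequences equalled the GRCh38 genome at their coordinates. Mature sequences were found for 714 of the 800 tested miRNAs and 12 of the 13 further arms. All 10 miRNAs and all further arms that passed the filter are named in the text, by a fixed rule. The members and lists were chosen with earlier results of these data known. Alternatives covered the scaling, the filter, the tool, the threshold, the pseudocount, the replicate block and leaving out each library.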

Additional observations from a re-analysis of the deposited data

How the results depend on the processing

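The 6 enriched mirtron miRNAs stayed at 6 under DESeq2's size factors and Wald test, without a filter, with at least 10 counts in every library, at an adjusted p-value under 0.01, when any single library was omitted, and in the fit with a replicate block (6); total counts and upper-quartile factors gave 9. The depleted count, 0 as reported, was 1 with DESeq2's size factors, DESeq2's Wald test, no filter and at least 10 counts in every library, and 0 to 1 with each library left out; this was miR-1226-3p. The sign of miR-1226-3p turned with total counts (0.81) and upper-quartile factors (0.56), and that of miR-877-3p with DESeq2's size factors (-0.0757), DESeq2's Wald test (-0.0786) and no filter (-0.0501), where the scaling moved all miRNAs. Of the further arms 4 were enriched as reported, 1 with at least 10 counts in every library (2 arms tested), 3 with the replicate block and 3 to 4 with each library left out; these alternatives were chosen after seeing the data. The arm difference of miR-1237 was 0.0222 with a pseudocount of 1 and -0.79 to 1.34 with each library left out, while those of the other 5 hairpins kept their sign under every alternative run; that of miR-1236 was 2.51 with a pseudocount of 3, and that of miR-1229 was 2.04 without m7G-RIP replicate 3. Same-numbered libraries did not deviate together (correlations of -0.014, -0.028 and 0.060) and were treated as sharing a number only; exact paired sign-flip tests of the arm ratios cannot go below p = 0.25. Too few counts left miR-1225-5p and 8 of the 13 further arms untested.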
